A study of Mus musculus with 6 samples.

Results

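The genes described here encode the proteins that coat cellular lipid droplets and the lipases that release fatty acids from stored or imported fat. They are 10 of the 52550 gene rows in the count table, taken by symbol: Plin2, Plin3, Plin4, Plin5, Hilpda, Pnpla2, Abhd5, Lipa, Lpl and Mgll. RNA was sequenced from alveolar epithelial type II (AT2) cells of C57BL/6 mouse lung, freed with dispase and sorted magnetically as CD45-negative and EPCAM-positive. The 3 libraries labelled Grp78KO came from mice carrying Sftpc+/creERT2 and Grp78f/f with tamoxifen, and the 3 Control libraries from the same genotype without it. The study compared AT2 cells labelled as lacking Grp78, the chief chaperone of the endoplasmic reticulum (ER), with AT2 cells that keep it. Every mouse, Control included, carried the floxed alleles and the tamoxifen-inducible Cre at 1 allele of the surfactant protein C gene, which is itself an AT2 gene. The label for days counts 10 days after tamoxifen in all 6 libraries, at odds with the Control genotype label, and tamoxifen and recombination cannot be told apart. No age is used here. No source says that replicates were separate animals, so each p-value covers only sample-to-sample spread, which could be technical.

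Lipid droplets are stores of neutral fat wrapped in a single layer of phospholipid, and perilipins (the Plin genes) sit on that surface and control which lipases reach the fat. Droplet triglyceride is taken apart in steps by Pnpla2, a hormone-sensitive lipase and Mgll, whereas Lpl acts outside the cell on circulating lipoproteins and Lipa acts inside lysosomes. AT2 cells draw on fatty acids to build surfactant, and in rodent lung neighbouring lipofibroblasts hold droplets that are thought to supply them.

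Library totals ran from 110770711 to 128129307 counts in the libraries labelled Grp78KO and from 131235053 to 149520306 in Control. Hspa5, the gene for Grp78, was at 9262, 9180 and 3809 CPM (counts scaled to library size with TMM factors) in libraries 1, 2 and 3 labelled Grp78KO, against 1355, 1289 and 925 CPM in Control 1, 2 and 3 (log2 fold 2.64, SE 0.361, edgeR adjusted p = 0.00208). A gene-level count cannot show whether the floxed exons were removed, and the label names a loss, so directions are given between libraries as labelled. Of the 10 AT2 markers all were called lower, with summed levels of 40707 to 51864 CPM in the libraries labelled Grp78KO and 105170 to 121860 CPM in Control. All 12 fibroblast markers were called higher, summing to 1210 to 1359 CPM against 241 to 599 CPM. The 6 smooth muscle markers (4 called higher) summed to 21.2 to 50.5 CPM in the libraries labelled Grp78KO against 12.5 to 13.0 CPM in Control, and the 6 mesothelial markers (5 higher) to 194 to 224 against 111 to 124 CPM. The 10 endothelial markers (1 higher, 1 lower) summed to 443 to 759 against 437 to 477 CPM. The 12 macrophage and leukocyte markers (2 higher, 1 lower) summed to 1868 to 2005 against 2728 to 3129 CPM, mostly from Lyz1. Without Lyz1, a step chosen after its values were seen, they came to 265 CPM in library 3 labelled Grp78KO and to at most 22.3 CPM in the other 5. The 9 adipocyte markers (1 called higher) summed to 8.44 to 10.9 against 4.79 to 7.34 CPM, with Lep at 0 in every library, and the 10 heart and striated muscle markers (3 higher) to 4.46 to 5.41 against 2.80 to 4.0 CPM. The part that other cell types play in the results on single genes was not tested, and in these bulk samples fewer cells of a type and less RNA per cell cannot be told apart.

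All 10 genes passed the filter on low counts. The lysosomal lipase gene Lipa and the coat gene Plin5 were called higher in the libraries labelled Grp78KO, and the coat gene Plin2 and the lipase genes Pnpla2, Lpl and Mgll were called lower. Plin3, Plin4, Hilpda and Abhd5 were not called. A call here is an adjusted p under 0.05 in edgeR's quasi-likelihood test, adjusted over all 18849 genes tested. Across those genes 36.8% were called, 18.0% higher and 18.8% lower, beside 2 of 10 higher and 4 of 10 lower here. The 10 genes were chosen with earlier results of these data known, and no test of these counts was made. The groups did not overlap for 8 of the 10 (2 higher, 6 lower), against 51.6% of all genes tested (25.0% higher, 26.6% lower). Their median log2 fold was -0.35, against 0.02 for all genes tested. With scaling by library size alone the median gene tested moved up by 0.26 on the log2 scale, and 82.2% of all calls were higher, against 48.9% with the TMM factors used here (59.2% with upper-quartile factors).

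**Figure D1:**
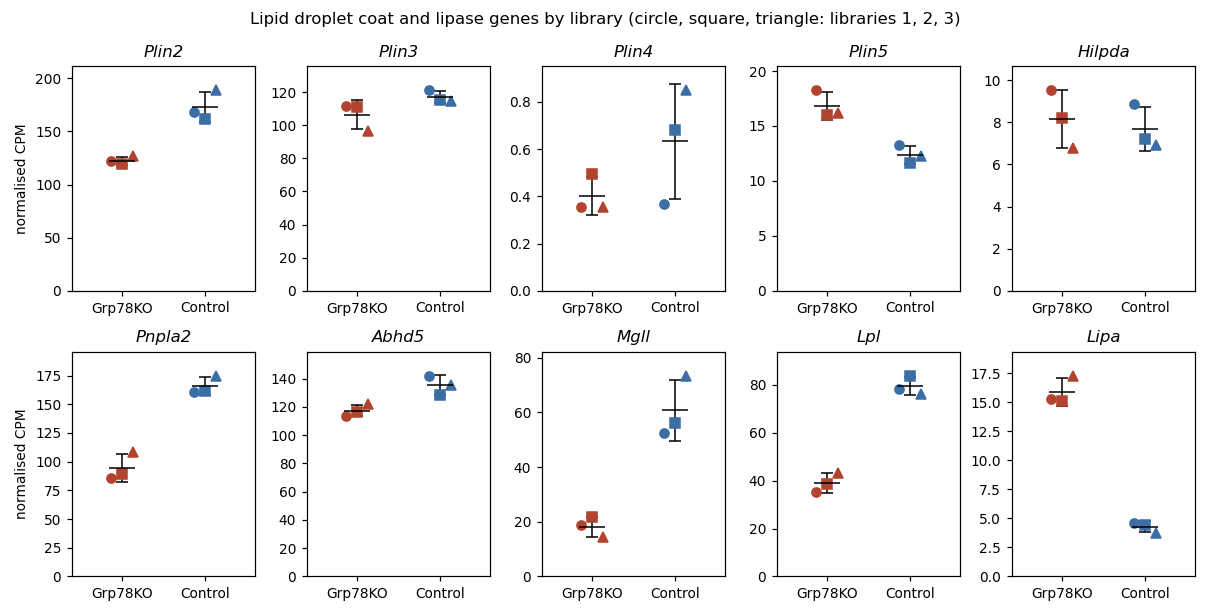
Normalised CPM (vertical axis, from 0) of each of the 10 genes in the libraries labelled Grp78KO and in Control. Points are libraries (circle 1, square 2, triangle 3) and bars are the mean and SD of 3. Lipa at 15.2 to 17.3 CPM lies above its Control libraries at 3.77 to 4.65 CPM, and Mgll at 14.3 to 21.6 CPM lies below its own at 52.6 to 73.4 CPM.

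The order of the genes by level was read per length, as CPM per kilobase of each gene's principal transcript. In the libraries labelled Grp78KO it ran from Plin2 (64.9 ± 2.04) through Pnpla2 (52.5 ± 6.78), Abhd5 (37.2 ± 1.28) and Plin3 (29.2 ± 2.40) to Lpl (9.47 ± 0.998), Plin5 (8.47 ± 0.632), Hilpda (8.33 ± 1.40), Lipa (5.36 ± 0.407) and Mgll (4.71 ± 0.946), each as CPM per kilobase ± SD, n = 3. In Control the levels were 92.1 ± 4.46 for Pnpla2, 91.7 ± 7.54 for Plin2, 42.9 ± 2.15 for Abhd5, 32.2 ± 0.983 for Plin3, 19.3 ± 0.948 for Lpl, 15.7 ± 2.88 for Mgll, 7.81 ± 1.08 for Hilpda, 6.24 ± 0.412 for Plin5 and 1.44 ± 0.155 for Lipa. Plin4 was last in both groups, at 0.0697 ± 0.0143 in the libraries labelled Grp78KO and 0.110 ± 0.0424 in Control. Lpl, Plin5 and Hilpda overlapped in the libraries labelled Grp78KO, as did Lipa and Mgll. In Control, Pnpla2 overlapped with Plin2, and Lpl with Mgll. Parts of this order depend on the length used. Per kilobase of all annotated exons, the means in the libraries labelled Grp78KO were 8.06 for Plin5, 7.41 for Hilpda, 3.72 for Lpl, 3.59 for Mgll and 2.35 for Lipa, so that Lpl came after Hilpda and Lipa after Mgll. On that measure Plin3 also came before Abhd5 in both groups (28.1 and 19.7 in the libraries labelled Grp78KO, 31.0 and 22.8 in Control). In Control, Mgll (12.0) came before Lpl (7.59).

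Among the coat genes, Plin2 was called lower and Plin5 higher, while Plin3 and Plin4 were not called. Plin2 (chromosome 4, 86648386 to 86670060, minus strand, mm10) encodes the coat protein that most cells outside fat tissue carry on their droplets. It was at 122, 119 and 127 CPM in libraries 1, 2 and 3 labelled Grp78KO, against 169, 162 and 189 CPM in Control. The groups did not overlap, and Control 3 was the highest library. This gave a log2 fold of -0.50 with an SE of 0.0959 (edgeR adjusted p = 0.00709). Scaled by library size alone the gene was not called (log2 fold -0.24, edgeR adjusted p = 0.140). The 300 bases around its start, shown because its E-box recurs in Mgll, are from RefSeq on GRCm38.p6 at chr4:86670010-86670309, minus strand. Capitals mark CACGTG, an E-box that also lies within the longer CLEAR element of lysosomal promoters. These letters occur in 7.15% of all windows read, and the longer element was not searched for. The match begins at position -4 from the start and also holds ACGTG, the hypoxia response core, on each strand.
Plin2: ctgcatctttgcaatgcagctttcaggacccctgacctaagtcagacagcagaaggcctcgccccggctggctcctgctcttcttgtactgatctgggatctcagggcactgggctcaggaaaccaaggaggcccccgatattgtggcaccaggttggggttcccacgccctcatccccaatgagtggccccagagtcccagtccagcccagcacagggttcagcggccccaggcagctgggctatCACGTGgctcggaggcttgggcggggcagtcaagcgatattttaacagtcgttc

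Plin5 (chromosome 17, 56111601 to 56117596, minus strand) encodes the coat protein of tissues that burn fat, where it ties droplets to mitochondria. Its levels were 18.3, 16.0 and 16.2 CPM in the libraries labelled Grp78KO, against 13.3, 11.6 and 12.3 CPM in Control. Every library labelled Grp78KO was above every Control library, by a narrow margin. This gave a log2 fold of 0.44 with an SE of 0.10 (edgeR adjusted p = 0.0131). Without library 1 labelled Grp78KO or without Control 2 the call ended (log2 fold 0.38 and 0.39, edgeR adjusted p = 0.0601 and 0.0705). Plin5 remained at the level of a mid-ranked gene, above 55.4% of the genes tested by mean CPM.

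Plin3 (chromosome 17, 56277476 to 56292873, minus strand) encodes a coat protein that moves between cytosol and newly formed droplets. It was at 112, 111 and 96.3 CPM in the libraries labelled Grp78KO, against 121, 115 and 115 CPM in Control. The groups were separate, with library 3 labelled Grp78KO lowest, but the gene was not called (log2 fold -0.14, 95% interval -0.36 to 0.08, edgeR adjusted p = 0.268). Scaled by library size alone, its log2 fold was 0.11. Plin4 (chromosome 17, 56100591 to 56109803, minus strand), a coat protein gene best known from fat and muscle, was barely detected. It had 48, 59 and 50 counts in the libraries labelled Grp78KO, against 42, 92 and 111 counts in Control 1, 2 and 3. The groups overlapped because Control 1 was as low as the libraries labelled Grp78KO (log2 fold -0.66, 95% interval -1.51 to 0.19, edgeR adjusted p = 0.191). Its exons share 17 bases with Hdgfl2 on the opposite strand, a gene with 3566 to 4997 counts, and no source used here says that counting kept strand. Plin4 and Plin5 lie 1797 bases apart, and Plin3 another 159879 bases away.

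Hilpda and Abhd5, the inhibitor and the activator of the first droplet lipase, were not called. Hilpda (chromosome 6, 29272488 to 29275446, plus strand) encodes a small droplet protein, induced by hypoxia, that binds and inhibits the product of Pnpla2. Its levels were 9.53, 8.22 and 6.78 CPM in the libraries labelled Grp78KO, against 8.88, 7.21 and 6.93 CPM in Control. The groups overlapped, and library 1 was the highest in each group (log2 fold 0.09, 95% interval -0.28 to 0.47, edgeR adjusted p = 0.682; -0.03 without library 1 labelled Grp78KO). Of its 2 start windows, the downstream one, at chr6:29272376-29272675 on the plus strand, is shown because the gene is a known hypoxia target. Capitals mark ACGTG at position -43.
Hilpda: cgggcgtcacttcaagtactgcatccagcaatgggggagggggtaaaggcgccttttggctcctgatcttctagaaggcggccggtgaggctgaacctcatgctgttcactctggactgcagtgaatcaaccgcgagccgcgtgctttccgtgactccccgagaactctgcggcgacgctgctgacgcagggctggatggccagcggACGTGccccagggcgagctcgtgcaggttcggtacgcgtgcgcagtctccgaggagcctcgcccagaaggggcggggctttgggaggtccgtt

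Abhd5 (chromosome 9, 122351608 to 122381524, plus strand) encodes the co-activator of the Pnpla2 product, which perilipins hold until lipolysis is switched on. It was at 114, 117 and 122 CPM in the libraries labelled Grp78KO, against 142, 129 and 136 CPM in Control. The groups were separate but close. Its log2 fold came to -0.21 (95% interval -0.41 to -0.0072, edgeR adjusted p = 0.0948). Scaled by library size alone, it was 0.05. Without both libraries numbered 3 it was called (log2 fold -0.23, edgeR adjusted p = 0.0139). Antisense gene A730085K08Rik shares 950 of its 5956 exon bases but had only 71 to 101 counts in the libraries labelled Grp78KO and 112 to 271 in Control, against 13872 to 17720 for Abhd5.

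The droplet lipase genes fell at both ends of the pathway measured here. Pnpla2 (chromosome 7, 141455198 to 141460743, plus strand) encodes adipose triglyceride lipase, which removes the first fatty acid. Its levels were 85.6, 89.4 and 108 CPM in libraries 1, 2 and 3 labelled Grp78KO, against 160, 162 and 175 CPM in Control. Library 3 labelled Grp78KO lay closest to Control, and the groups were well apart (log2 fold -0.81, SE 0.114, edgeR adjusted p = 0.00227). Mgll (chromosome 6, 88724412 to 88828360, plus strand) encodes monoacylglycerol lipase, which frees the last fatty acid and also breaks down the endocannabinoid 2-arachidonoylglycerol. It was at 18.7, 21.6 and 14.3 CPM in the libraries labelled Grp78KO, against 52.6, 56.2 and 73.4 CPM in Control. Libraries numbered 3 held both the lowest and the highest value. The log2 fold of -1.74 (SE 0.184, edgeR adjusted p = 0.000893) corresponds to 3.34-fold more in Control, and its size exceeded that of 94.0% of the genes tested. Without both libraries numbered 3 the log2 fold was -1.43 (edgeR adjusted p = 7.92e-07). The upstream of its 2 start windows, at chr6:88724162-88724461 on the plus strand, holds the same E-box as Plin2, beginning at position -44 (capitals).
Mgll: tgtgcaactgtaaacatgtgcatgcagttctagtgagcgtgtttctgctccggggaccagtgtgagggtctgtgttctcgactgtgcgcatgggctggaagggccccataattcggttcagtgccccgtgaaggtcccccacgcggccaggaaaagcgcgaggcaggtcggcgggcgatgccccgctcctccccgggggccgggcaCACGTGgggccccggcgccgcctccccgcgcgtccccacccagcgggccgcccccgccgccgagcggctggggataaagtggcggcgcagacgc

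**Figure D2:**
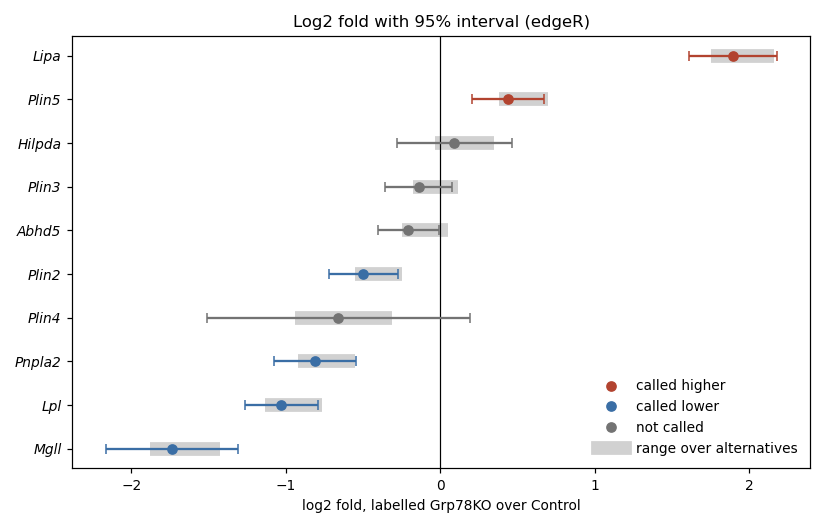
Log2 fold of the libraries labelled Grp78KO over Control (horizontal axis) for the 10 genes, with 95% intervals from edgeR (bars) and the range over the alternative settings (grey bands). Intervals of Plin3, Plin4 and Hilpda cross 0, and the grey bands of Plin3, Hilpda and Abhd5 do as well.

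Lpl, whose enzyme acts outside the cell, fell, and Lipa, whose enzyme acts inside lysosomes, rose. Lpl (chromosome 8, 68880491 to 68907448, plus strand) encodes lipoprotein lipase, a secreted enzyme that folds in the ER and then works on the vessel wall. Its levels were 35.1, 38.4 and 43.3 CPM in the libraries labelled Grp78KO, against 78.3, 83.8 and 76.3 CPM in Control. The groups did not overlap, and library 3 labelled Grp78KO lay closest to Control (log2 fold -1.03, SE 0.101, edgeR adjusted p = 0.000746). Fibroblasts and macrophages are also known to make Lpl. The summed fibroblast markers were higher in the libraries labelled Grp78KO. Control 3, with 599 CPM of them against 246 and 241 CPM in Control 1 and 2, had Lpl at 76.3 CPM, near the 78.3 CPM of Control 1. Macrophage markers other than Lyz1 summed to 265 CPM in library 3 labelled Grp78KO, which had the highest Lpl of its group. They summed to 22.1 and 22.2 CPM in libraries 1 and 2 labelled Grp78KO. What these cells add to the Lpl level was not tested.

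Lipa (chromosome 19, 34492318 to 34527474, minus strand) encodes lysosomal acid lipase, which cuts cholesteryl esters and triglycerides delivered to lysosomes. It was at 15.3, 15.2 and 17.3 CPM in the libraries labelled Grp78KO, against 4.65, 4.43 and 3.77 CPM in Control. The groups were far apart, and the spread within each was small. This gave a log2 fold of 1.89 with an SE of 0.122 (edgeR adjusted p = 3.00e-04), a 3.72-fold rise that exceeded the size of change of 95.05% of the genes tested. Macrophages are rich in Lipa. Their markers other than Lyz1, which was left out after its values were seen, were highest in library 3 labelled Grp78KO (265 CPM). With Lyz1 they summed to 1868 to 2005 CPM in the libraries labelled Grp78KO against 2728 to 3129 CPM in Control. Most of that sum was Lyz1 itself, which was called lower (log2 fold -0.69), while Mrc1 and C1qc were called higher. Without library 3 labelled Grp78KO the log2 fold was 1.83 (edgeR adjusted p = 8.92e-05). Libraries 1 and 2 labelled Grp78KO held 22.1 and 22.2 CPM of the macrophage markers other than Lyz1, and 15.3 and 15.2 CPM of Lipa. The summed fibroblast, smooth muscle and mesothelial markers were higher in every library labelled Grp78KO than in any Control library. What any of these cells add to the Lipa level was not tested. The RefSeq window around its start, at chr19:34527425-34527724 on the minus strand, is shown because the gene rose most. Neither CACGTG nor ACGTG was found in it, and capitals mark its one match, TATAAA on the opposite strand at position -239.
Lipa: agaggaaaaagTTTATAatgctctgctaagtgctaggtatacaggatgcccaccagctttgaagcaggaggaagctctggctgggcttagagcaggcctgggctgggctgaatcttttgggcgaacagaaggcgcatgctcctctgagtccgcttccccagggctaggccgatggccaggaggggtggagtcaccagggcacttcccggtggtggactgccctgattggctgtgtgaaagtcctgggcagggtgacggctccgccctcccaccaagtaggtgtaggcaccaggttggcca

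Windows of 250 bases before to 50 after a start were read for 9 of the 10 genes, 12 windows in all, and Lpl was not included. They were searched on both strands for the hypoxia core ACGTG and for CACGTG (every match of which overlaps ACGTG), the PPAR direct repeat, the ER stress response element, TGACGTGG (unfolded protein response element), TGATGNAA (C/EBP-ATF) and TATAAA. Of all 32851 such windows in the RefSeq table, 19.6% hold ACGTG, 7.15% CACGTG, 0.0396% the PPAR repeat, 0.119% the ER stress response element, 0.676% TGACGTGG, 3.97% TGATGNAA and 13.6% TATAAA. In the windows of these genes, ACGTG was found in Plin2, Hilpda and both Mgll windows, CACGTG in Plin2 and Mgll, and the 4 motifs for PPAR, ER stress, the unfolded protein response and C/EBP-ATF in none. No motif was found in 7 of the 12. These letter matches describe the windows and are not binding sites.

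Each library labelled Grp78KO differed from the Control mean in the same direction for the 6 called genes. This follows from their groups not overlapping. For Plin2 the log2 differences of libraries 1, 2 and 3 were -0.50, -0.54 and -0.45, a narrow spread. Pnpla2 was at -0.95, -0.89 and -0.61 and Lpl at -1.18, -1.05 and -0.88, so that library 3 moved least for these. Mgll was at -1.70, -1.49 and -2.08 and Lipa at 1.84, 1.82 and 2.02, so that library 3 moved most. Library 3 labelled Grp78KO also had the smallest rise of Hspa5. Among Control libraries, the log2 differences of these 6 genes from their mean ran from -0.21 to 0.27, both ends being Mgll.

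**Figure D3:**
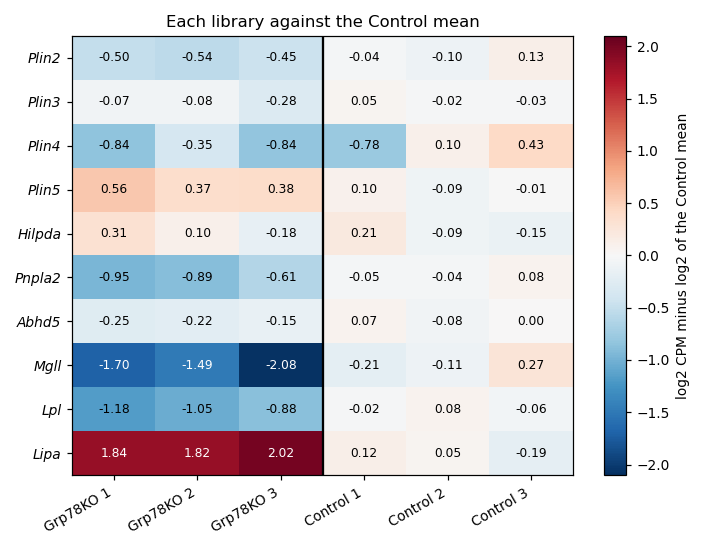
Log2 CPM of each library minus the log2 of the Control mean (colour and printed value), with genes in rows and libraries in columns, those labelled Grp78KO on the left. Lipa and Mgll are the strongest rows, and within the Control columns only Plin4, at -0.78 and 0.43, varies beyond 0.3.

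Ratios within a library do not depend on how libraries are scaled. Hilpda counts per Pnpla2 count were 0.111, 0.0920 and 0.0625 in the libraries labelled Grp78KO, against 0.0554, 0.0446 and 0.0396 in Control, a mean log2 difference of 0.90. The ratio of Plin2 to Plin3 was 1.09, 1.07 and 1.31 against 1.39, 1.40 and 1.65 (mean log2 difference -0.35). The ratio of Lpl to Lipa was 2.30, 2.53 and 2.501 against 16.8, 18.9 and 20.2 (mean log2 difference -2.93). The groups did not overlap for any of the 3 ratios. For Lpl to Lipa this follows from the single genes, whose groups were separate in opposite directions. The ratios reuse counts already described and are not further evidence. Each ratio gave p = 0.1 in a two-sided exact permutation test (0.1 after Benjamini-Hochberg adjustment over the 3). That is the smallest value that 3 against 3 allows. Of the libraries labelled Grp78KO, library 3 came closest to Control for Hilpda to Pnpla2 and for Plin2 to Plin3.

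**Figure D4:**
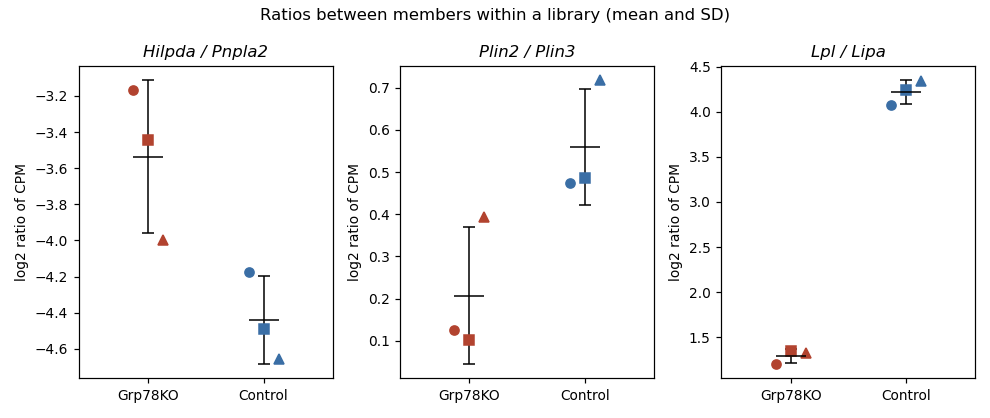
Log2 ratio of normalised CPM between pairs of genes in each library (vertical axes, which do not start at 0), with mean and SD of 3. The Lpl to Lipa ratio is 1.20 to 1.34 in the libraries labelled Grp78KO and 4.07 to 4.34 in Control.

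Of 28 tested genes of lipid droplet biogenesis and coat (30 listed), 7 were called lower and 2 higher, with a median log2 fold of -0.08, beside 36.8% called and a median of 0.02 over all genes tested. With library-size scaling 7 were higher and 4 lower, beside 6218 higher and 1343 lower of all 18849 genes tested. With the replicate number as a block 4 were called higher, and without both libraries numbered 3 the counts were 5 higher and 13 lower. The 2 higher genes were Dgat1 and Dgat2, whose enzymes make triglyceride. Dgat1 was at 18.8, 18.0 and 15.6 CPM against 13.5, 13.8 and 13.3 CPM in Control (log2 fold 0.37, SE 0.0994, edgeR adjusted p = 0.0240), and Dgat2 at 12.5, 11.4 and 14.0 CPM in the libraries labelled Grp78KO against 9.05, 9.54 and 8.58 CPM in Control (log2 fold 0.48, SE 0.112, edgeR adjusted p = 0.0141). Dgat1 lost its call without any 1 of 5 libraries (library 3 labelled Grp78KO being the exception, edgeR adjusted p up to 0.101). Among the lower genes were Tmem159, the partner of seipin at sites of droplet assembly (log2 fold -1.16), Hsd17b11, a droplet-bound dehydrogenase gene (-0.91), the phospholipid-remodelling gene Lpcat1 (-1.37), which is also an AT2 marker, and the fat storage gene Fitm2 (-0.47, not called with library-size scaling, edgeR adjusted p = 0.0862). Plin1, the coat gene of fat cells, was at 0.0735 to 0.0924 CPM against 0.0517 to 0.149 CPM, and Cidec, which fuses droplets, at 0.0672 to 0.369 against 0.0148 to 0.0842 CPM. Neither was called (edgeR adjusted p = 0.815 and 0.132).

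Of 30 tested genes of other lipases and their partners (35 listed), 10 were called lower and 5 higher, with a median log2 fold of -0.04, beside the same 36.8% called over all genes. With library-size scaling 9 were higher and 4 lower, beside 6218 higher and 1343 lower of all 18849 genes tested. Without library 1 or 2 labelled Grp78KO, 3 were higher and 5 lower, as they were without Control 2. G0s2, a second inhibitor of the Pnpla2 product, was at 8.17, 7.53 and 5.66 CPM in the libraries labelled Grp78KO, against 2.43, 2.54 and 3.50 CPM in Control. The groups were separate, and the libraries numbered 3 lay closest to each other (log2 fold 1.33, SE 0.204, edgeR adjusted p = 0.00309). The lower genes included Lipg, the endothelial lipase gene (log2 fold -1.10, edgeR adjusted p = 0.000435), and Abhd2, a monoacylglycerol hydrolase gene (-1.17, edgeR adjusted p = 0.00124). Lipe, the hormone-sensitive lipase gene that acts between Pnpla2 and Mgll, was at 17.8 to 23.7 CPM against 18.4 to 26.7 CPM and was not called (log2 fold -0.03, 95% interval -0.42 to 0.36, edgeR adjusted p = 0.907). Its log2 fold was 0.26 and called (edgeR adjusted p = 0.0174) without both libraries numbered 3, and also above 0 under 5 other settings. Naaa, a lysosomal amidase gene, rose (log2 fold 0.75, edgeR adjusted p = 0.00172), as did Abhd4 (0.31, edgeR adjusted p = 0.0293), named after its values were seen.

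Genes that handle the lipoprotein lipase protein went their own ways. Lmf1, an ER protein needed for the enzyme to fold, was at 28.7, 28.1 and 18.9 CPM in the libraries labelled Grp78KO, against 19.2, 17.2 and 16.7 CPM in Control. It was called higher (log2 fold 0.51, SE 0.164, edgeR adjusted p = 0.0431), but library 3 labelled Grp78KO overlapped with Control, and the call ended without library 1 or 2 labelled Grp78KO, without any 1 Control library (edgeR adjusted p = 0.0787 to 0.143) and with limma-voom (adjusted p = 0.0592). Sel1l, an ER degradation adaptor that the enzyme needs to leave the ER in mice, rose to 1062, 1107 and 618 CPM in the libraries labelled Grp78KO, against 245, 253 and 244 CPM in Control (log2 fold 1.91, edgeR adjusted p = 0.00118). Gpihbp1, the endothelial carrier of the enzyme, was at 5.22 to 7.90 CPM against 4.73 to 6.89 CPM and was not called (edgeR adjusted p = 0.517). Angptl4, an inhibitor of the enzyme, was at 12.7, 12.6 and 7.92 CPM against 3.03, 3.15 and 16.5 CPM, with Control 3 the highest of all (log2 fold 0.55, edgeR adjusted p = 0.542). Without Control 3 it was called higher (log2 fold 1.84, edgeR adjusted p = 0.00419).

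**Figure D5:**
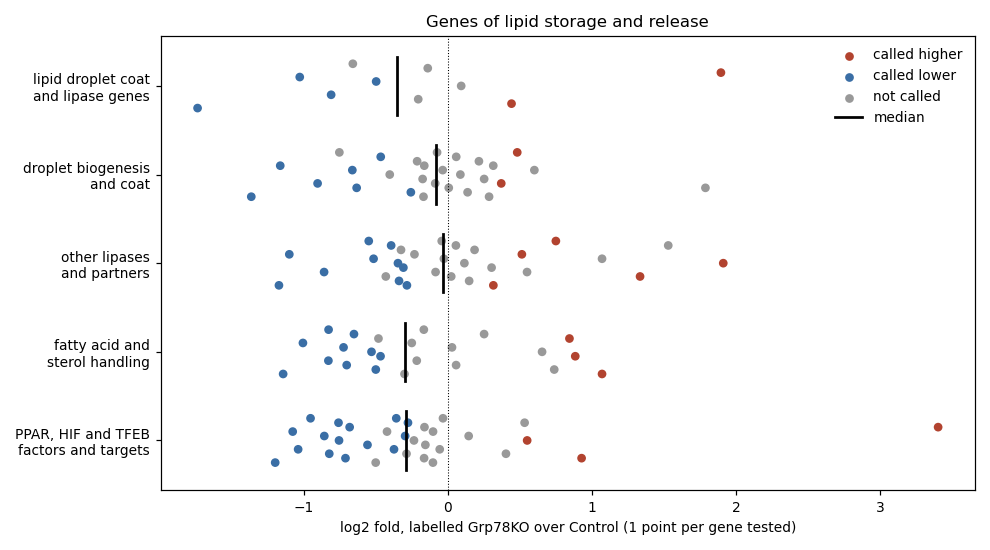
Log2 fold of the libraries labelled Grp78KO over Control (horizontal axis) for each gene tested, by group of genes, with colours for the edgeR call and a line at the median. The medians of the 4 wider groups lie between -0.30 and -0.04, and that of the 10 genes described here is -0.35.

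Of 23 tested genes of fatty acid and sterol handling (24 listed), 10 were called lower and 3 higher, with a median log2 fold of -0.30, beside 18.8% lower and 18.0% higher over all genes. With library-size scaling 6 were higher and 5 lower, beside 6218 higher and 1343 lower of all 18849 genes tested. Without library 1 or 2 labelled Grp78KO, 6 were lower. The lower ones included Cd36, a fatty acid uptake receptor gene, at 768, 773 and 809 CPM in the libraries labelled Grp78KO against 1850, 1746 and 1597 CPM in Control (log2 fold -1.14, SE 0.123, edgeR adjusted p = 0.000908). Acot7, a cytosolic acyl-CoA thioesterase gene (log2 fold -1.01), Acsl5, which activates fatty acids (-0.83), and Stard3, a late endosomal sterol carrier (-0.70), were lower too. The 3 higher genes were Slc27a3 (log2 fold 1.07, edgeR adjusted p = 0.00541), the fatty acid binding protein gene Fabp4 (0.84, edgeR adjusted p = 0.0244), at 2.18 to 3.82 CPM against 1.72 to 1.75 CPM, and Acot2 (0.88, edgeR adjusted p = 0.0276), whose groups overlapped at library 3 (68.1 CPM labelled Grp78KO, 69.1 CPM in Control). Without library 1 or 2 labelled Grp78KO, or without Control 1 or 2, the calls of Fabp4 and Acot2 both ended, leaving 1 higher gene. The Acot2 call also ended with the replicate number as a block (edgeR adjusted p = 0.0601) and with no filter on low counts (edgeR adjusted p = 0.0582). Fabp4, which is also an adipocyte marker, lost its call without Control 3 as well.

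Of 32 tested factors and targets of PPAR, HIF and TFEB (33 listed), 15 were called lower and 3 higher, with a median log2 fold of -0.29, beside 18.8% lower and 18.0% higher over all genes. With library-size scaling 8 were lower, beside 1343 lower of all 18849 genes tested. Cebpa, a factor of AT2 maturation and fat storage, was at 329, 316 and 362 CPM in the libraries labelled Grp78KO against 779, 738 and 797 CPM in Control (log2 fold -1.20, SE 0.113, edgeR adjusted p = 0.000680). Nr1h3, the sterol-sensing receptor LXR alpha (log2 fold -1.04), and Srebf1, a driver of fatty acid synthesis (-0.82), were also lower. The factors of lysosomal genes Mitf, Tfeb and Tfe3 had log2 folds of -1.08, -0.37 and -0.28 and were called lower, named after their values were seen. Pparg was at 7.12 to 7.60 CPM against 7.53 to 8.66 CPM and was not called (log2 fold -0.17, edgeR adjusted p = 0.257; 0.09 with library-size scaling). The 3 higher genes were Ndrg1 (3.40, edgeR adjusted p = 0.000489), the glucose transporter gene Slc2a1 (0.93, edgeR adjusted p = 0.00887) and Ankrd37 (0.55, edgeR adjusted p = 0.0273). Of the other listed genes known to respond to hypoxia, Pdk1 (-0.71, edgeR adjusted p = 0.00176) and Bnip3 (-0.68, edgeR adjusted p = 0.00197) were called lower. Vegfa (-0.24, edgeR adjusted p = 0.209) and Egln3 (0.53, edgeR adjusted p = 0.213) were not called. The hypoxia factor genes Hif1a (-0.36), Epas1 (-0.86) and Arnt (-0.30) were called lower. All of these, from Pdk1 to Arnt, were named after their values were seen. The Ankrd37 call ended without library 1 or 2 labelled Grp78KO and without Control 1 or 2 (edgeR adjusted p = 0.0553 to 0.117).

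Genes with the most similar profile were found by the smallest Euclidean distance between mean-centred log2 CPM over the 6 libraries. They were Fcer2a for Lipa (distance 0.187), Notch2 for Lpl (0.0784), Ctnnb1 for Pnpla2 (0.0422), Vax2 for Plin2 (0.0583), Rassf10 for Plin5 (0.0655), Polr2e for Plin3 (0.0297), Commd5 for Hilpda (0.0733) and Epn1 for Abhd5 (0.0725). Mgll and Plin4 had no close counterpart, the nearest being Gm15477 (0.289) and Gm15964 (0.285). The distance takes no account of level, and Vax2 lay at only 0.151 to 0.163 CPM in the libraries labelled Grp78KO and 0.214 to 0.260 CPM in Control.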

How the data were processed

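RNA was measured in 3 libraries labelled Grp78KO and 3 Control libraries. The authors deposited raw counts per gene symbol, made from paired-end libraries (NEBNext Ultra kit, per the labels). The submitters' processing notes name mm10 and edgeR 3.7; the aligner, the counter and gene models have no entry (not given in the sources used here). Genes with 2 counts outnumbered those with 1 by 1.63 to 1.76 times, so mates may have been counted separately and true counting error may exceed what the counts imply.

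Counts were analysed in R 4.3.3 using edgeR 4.0.16 (low-count filter filterByExpr, TMM, robust quasi-likelihood F test, group as the only term), with Benjamini-Hochberg adjustment over 18849 genes; calls are at 0.05. SEs were derived from the F statistic and the log2 fold. The common dispersion corresponds to a variation of 22.3%. Of all genes tested, 6938 (36.8%) were called. CPM are TMM-scaled; coordinates, transcript lengths and overlaps come from GENCODE M21 (mm10), promoter windows from RefSeq (GRCm38.p6).

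Same-numbered libraries deviated together from their group means (correlations 0.174, 0.147 and 0.281 for numbers 1, 2 and 3). Numbers 1 and 2 were hardly told apart, since library 1 labelled Grp78KO with Control 2 gave 0.116 and library 2 with Control 1 gave 0.0897. Every same-numbered correlation exceeded 0.1, but so did that of library 1 labelled Grp78KO with Control 2. The numbers were therefore taken only as possible pairs, by the data and not by a label. Group remained the only term, with the replicate number as a block as an alternative. Under the block 8415 genes were called, against 6938 in the main fit. Libraries of 1 group differed by more than sampling noise (chi-square per gene 7.90 to 168, after halving). Libraries 1 and 2 were nearest, at 7.90 for those labelled Grp78KO and 19.4 for Control. Library 3 stood apart, with pairs at 168 and 136 for those labelled Grp78KO and at 111 and 77.2 for Control. Other settings tried were DESeq2 1.42.0, limma-voom (limma 3.58.1), other factors and filters, the block, and leaving out libraries. The 10 genes and all lists were chosen with earlier results of these data known. Named genes are the 10, Hspa5, the 4 lowest adjusted p of each list, 10 set genes, the nearest profile of each, and any gene of a list with 3 or fewer calls in 1 direction. The fit was tested on simulated counts.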

Additional observations from a re-analysis of the deposited data

How the results depend on the processing

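The calls of Lipa, Mgll, Lpl and Pnpla2 held in direction and call under all 15 alternatives, with log2 folds of 1.75 to 2.16, -1.88 to -1.43, -1.14 to -0.77 and -0.92 to -0.55. With library-size scaling, Plin2 was at -0.24 and not called, and Plin3 and Abhd5 reversed to 0.11 and 0.0522 without a call. Plin5 lost its call without library 1 labelled Grp78KO or Control 2 (log2 fold 0.38 to 0.48 with 1 library left out), Hilpda reversed to -0.0334 without library 1 labelled Grp78KO (-0.0334 to 0.21 over the 6), and Abhd5 was called at -0.23 without both libraries numbered 3. The replicate number as a block kept every call of the 10 genes, with Abhd5 at -0.21 (edgeR adjusted p = 0.0549), Lipa at 1.90 and Mgll at -1.74, and ended that of Acot2 and began that of Epn1 (-0.22); it left the ratio differences as they were, at p = 0.25, the smallest that 3 pairs allow in an exact permutation test. Ratios kept their direction without any 1 library.

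With library-size scaling, 6218 of all genes tested were called higher and 1343 lower. Over all genes, 3706 to 8548 were called with 1 library left out and 10581 without both numbered 3. Among the 10, 1 or 2 were then higher. Droplet biogenesis genes counted 1 to 3 higher and 5 to 10 lower with 1 library left out, 5 and 13 without both numbered 3, 7 and 4 with library-size scaling, and 4 higher with the block. Other lipases counted 3 to 6 higher and 5 to 10 lower with 1 left out, 9 higher without both numbered 3, 9 and 4 with library-size scaling, and 6 lower with upper-quartile factors. Fatty acid and sterol genes counted 1 to 3 higher and 6 to 14 lower with 1 left out, 5 higher without both numbered 3, 6 and 5 with library-size scaling, and 1 higher with the 5 CPM filter, under which fewer genes are tested. PPAR, HIF and TFEB genes counted 5 higher without both numbered 3 and 8 lower with library-size scaling. The cause of other moves was not tested. Among uncalled named genes, Lipe reversed to 0.0418, 0.21 and 0.00344 (upper-quartile, library size, 5 CPM filter), to 0.0883 and 0.137 without library 3 labelled Grp78KO or Control 3, and to 0.264 without both (-0.150 to 0.137 with 1 library left out). Plin1 reversed to 0.0944 (library size) and 0.285 (without Control 1; -0.477 to 0.285 with 1 library left out), and library-size scaling reversed Epn1 (0.0411), Polr2e (0.123) and Pparg (0.0936). Plin4, with 42 to 111 counts, is limited by depth and was below the 5 CPM filter.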

Other observations

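Some genes stood higher in the library numbered 3 than in libraries 1 and 2 of the same group. They were picked after their values were seen, they form no fixed group, and no test was made. Cpt1a, which admits fatty acids to mitochondria, was at 110 CPM in library 3 labelled Grp78KO and 79.8 and 80.9 CPM in the others, against 127 CPM in Control 3 and 82.0 and 81.7 CPM in Control 1 and 2. Pdk4, which holds pyruvate back from oxidation, was at 8.84 CPM in library 3 labelled Grp78KO and 5.22 and 6.00 CPM in the others, against 14.7 CPM in Control 3 and 8.83 and 10.4 CPM. Acot1, an acyl-CoA thioesterase gene, was at 142 CPM in library 3 labelled Grp78KO and 108 and 100 CPM in the others, against 273 CPM in Control 3 and 179 and 172 CPM. Plin2 shared this order, with 127 CPM in library 3 labelled Grp78KO and 122 and 119 CPM in the others, against 189 CPM in Control 3 and 169 and 162 CPM. Angptl4 did so in Control only, where Control 3 was at 16.5 CPM and Control 1 and 2 at 3.03 and 3.15 CPM; in the libraries labelled Grp78KO, library 3 was lowest at 7.92 CPM, below 12.7 and 12.6 CPM. Acot2 did so in Control only as well, at 68.1 CPM in library 3 labelled Grp78KO and 109 and 111 CPM in the others, against 69.1 CPM in Control 3 and 44.9 and 42.0 CPM. Hilpda did not share it, being lowest in the libraries numbered 3, at 6.78 CPM in the one labelled Grp78KO and 6.93 CPM in Control.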
